A study of Mus musculus with 6 samples.

Results

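The widest stretches of open chromatin shared by all libraries were described in mouse haematopoietic stem cells (HSCs). Peaks on chromosomes 1 to 19, X and Y from 6 peak lists were merged wherever they overlapped by at least 1 bp, which gave 82993 union regions. Of these, 20810 were called in all 6 lists, and 47 of the 20810 were at least 2000 bp wide. These 47 regions were chosen by their width and their presence in every list, so both are given as a description. The data came from the assay for transposase-accessible chromatin (ATAC-seq), in which a transposase cuts and tags DNA that is not covered by nucleosomes. CD48-CD150+LSK cells (lineage-negative, Sca-1-positive, c-Kit-positive) of wild-type C57BL/6J bone marrow were used, about 5000 for each library. In 3 libraries the mice had been given DMSO, the solvent, and in 3 they had been given tunicamycin at 2 mg/kg, both by intraperitoneal injection. Tunicamycin blocks N-linked glycosylation and so loads the endoplasmic reticulum with misfolded protein. The comparison asks whether that stress altered chromatin accessibility. The labels do not say whether the replicates were separate animals, so every p-value reflects variation among the deposited libraries, possibly technical.

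Open chromatin mostly comes in short stretches, where a single transcription factor cluster or a single nucleosome-depleted promoter is exposed. Broader stretches are known from promoters of widely expressed genes, which tend to sit in CpG islands. These islands are rich in the dinucleotide CpG, are usually unmethylated and can hold several start sites, at times on both strands. A union region is also widened when neighbouring peaks of different libraries overlap in a chain, so its width is not the width of any 1 peak.

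The deposited lists held 28501 to 62478 peaks, which covered 11.9 to 28.9 Mb. DMSO replicate 3 was the shortest list and DMSO replicate 1 the longest. Read depth is unknown from peak lists, so list length served only as an indirect sign of a library's sensitivity. Peaks of 2000 bp or more were rare, with 2 to 12 in a list. Marker genes were looked up for a region called in all 6 lists that overlapped the gene or its flanking 1 kb. Such a region was present for 7 of 12 HSC markers (Kit, Procr, Hlf, Mecom, Esam, Hoxa9 and Meis1) and missing for the others, Ly6a, Slamf1, Fgd5 and Tek among them. Over all 21883 coding gene bodies 54.4% had one, so 7 of 12 is near the background and says little about the sort. None of 8 neutrophil and monocyte markers had one. Among other cell types, Klf1 of 5 erythroid markers, Pax5 and Ebf1 of 8 lymphoid markers, Cd163 of 4 macrophage markers, and Cdh5 and Pecam1 of 5 stromal and endothelial markers had one. Longer lists had such a region at 34 of 40 HSC transcription factor genes and 17 of 24 HSC surface and niche signalling genes. They also had one at 7 of 28 neutrophil and monocyte, 10 of 22 erythroid and 11 of 20 megakaryocyte genes. For lymphoid, macrophage, and stromal and endothelial genes the counts were 13 of 28, 9 of 18 and 9 of 21. An open region at a marker does not show that its gene is expressed.

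Promoter sequences are shown for 5 members that the results turn on, since what most members had in common was a CpG-rich start site. Each runs 5′ to 3′ on the strand of the gene over the 250 bases before a start site, in RefSeq sequence of GRCm38.p6, the assembly that mm10 denotes, with every CpG in capitals. Hnrnpa2b1 encodes an RNA-binding protein of nuclear ribonucleoproteins and Cbx3 the heterochromatin protein HP1 gamma. They start in opposite directions within 1 member. Kctd12, an auxiliary subunit of GABA-B receptors, had a lower rank in every tunicamycin library than in every DMSO library, though no member passed an adjusted p of 0.05 (limma). Cdkn2c encodes the cell cycle inhibitor p18, known for restraining HSC self-renewal. Stat6 encodes the transcription factor of interleukin 4 signalling and Vim the intermediate filament vimentin, and both are shown as promoters with few CpGs. The stretches lie at chr6:51469895-51470144 (minus strand, upstream of Hnrnpa2b1), chr6:51470366-51470615 (plus strand, upstream of Cbx3), chr14:102982638-102982887 (minus strand, Kctd12), chr4:109666757-109667006 (minus strand, the upstream start of Cdkn2c), chr10:127642736-127642985 (plus strand, Stat6) and chr2:13574061-13574310 (plus strand, Vim).
Hnrnpa2b1: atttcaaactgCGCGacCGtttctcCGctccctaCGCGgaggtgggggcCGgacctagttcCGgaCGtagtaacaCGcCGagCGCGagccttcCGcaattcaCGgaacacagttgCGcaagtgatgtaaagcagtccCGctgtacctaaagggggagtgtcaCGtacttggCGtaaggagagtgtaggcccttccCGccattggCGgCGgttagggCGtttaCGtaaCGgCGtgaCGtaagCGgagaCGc
Cbx3: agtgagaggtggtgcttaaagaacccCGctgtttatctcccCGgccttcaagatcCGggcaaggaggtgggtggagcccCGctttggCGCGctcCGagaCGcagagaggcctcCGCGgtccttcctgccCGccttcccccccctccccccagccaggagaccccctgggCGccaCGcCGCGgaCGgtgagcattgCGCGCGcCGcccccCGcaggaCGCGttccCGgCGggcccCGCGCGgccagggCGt
Kctd12: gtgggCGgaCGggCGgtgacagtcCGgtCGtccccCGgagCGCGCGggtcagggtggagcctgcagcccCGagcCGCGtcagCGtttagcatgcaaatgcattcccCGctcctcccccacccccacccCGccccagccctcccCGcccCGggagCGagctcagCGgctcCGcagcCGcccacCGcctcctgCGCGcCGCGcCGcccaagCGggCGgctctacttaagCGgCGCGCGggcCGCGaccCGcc
Cdkn2c: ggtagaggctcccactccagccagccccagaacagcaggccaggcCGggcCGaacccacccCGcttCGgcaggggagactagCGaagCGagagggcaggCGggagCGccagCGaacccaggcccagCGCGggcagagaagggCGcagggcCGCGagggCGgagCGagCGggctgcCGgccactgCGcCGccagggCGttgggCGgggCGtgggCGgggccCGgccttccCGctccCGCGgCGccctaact
Stat6: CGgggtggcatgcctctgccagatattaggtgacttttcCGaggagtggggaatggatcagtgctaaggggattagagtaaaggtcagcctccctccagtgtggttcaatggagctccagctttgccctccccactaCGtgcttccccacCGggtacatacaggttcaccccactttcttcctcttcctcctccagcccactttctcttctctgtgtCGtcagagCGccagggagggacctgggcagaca
Vim: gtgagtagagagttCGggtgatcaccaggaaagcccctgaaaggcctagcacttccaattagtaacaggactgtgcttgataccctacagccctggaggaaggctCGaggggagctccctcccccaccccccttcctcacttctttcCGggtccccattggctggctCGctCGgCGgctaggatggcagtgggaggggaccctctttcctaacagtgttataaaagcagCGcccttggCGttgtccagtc
The stretches of Hnrnpa2b1, Cbx3 and Cdkn2c each hold 29 CpGs and that of Kctd12 holds 36. Stat6 has 6 and Vim has 8 over the same length. The downstream start of Cdkn2c, which is not shown, also has 6.

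Most of the widest regions lay over the start of a protein-coding gene. Of the 47, 38 (80.9%, exact Clopper-Pearson 95% interval 66.7 to 90.9, counting error only) held a start site. In 31 of these the start came from a table with strand. In the other 7, those of Klf16, Skil, Ppp3ca, Rev3l, Impa2 and Hsp90ab1 among them, either end of the annotated gene was counted, since the gene has no entry in that table. The region in Nr3c1 was counted as holding no start, though start sites within that gene were not analysed. The share rose with width over all regions called in 6 lists. It was 8.59% of 2922 regions under 500 bp, 36.5% of 12553 regions of 500 to under 1000 bp, 72.0% of 4672 regions of 1000 to under 1500 bp and 79.4% of 616 regions of 1500 to under 2000 bp. The widest class was thus close to the class just below it, and its interval includes that class's share. A wider region also has more room to hold a start by position alone, and this was not tested.

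Several members served more than 1 start. Starts of more than 1 gene lay in 8 members, and 6 members (12.8%) held starts on opposite strands, beside 10.1% of regions of 1500 to under 2000 bp. The 6 are Cbx3/Hnrnpa2b1, Sgsm2/Tsr1, Mboat7/Tsen34, Atp6v1a/Naa50, LOC115486128/Tgif2 and Gm31649/Trim28. Tsr1 acts in ribosome assembly, Tsen34 is a subunit of the tRNA splicing endonuclease, Atp6v1a a subunit of the vacuolar proton pump and Naa50 an N-terminal acetyltransferase. Tgif2 is a repressor of TGF-beta target genes, and Trim28 (KAP1) a corepressor that silences transposable elements. The region of H1f4/H2bc6 holds the starts of a linker histone and of a histone H2B gene, both on the minus strand. A non-coding gene overlapped 17 members, and in 14 of them it was a long non-coding RNA gene.

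The CpG content of these starts was that of other wide promoters. Over 49 start sites of 38 genes inside members, the window from 250 bases before to 50 bases after the start had a median GC content of 64.7%, a median of 25 CpGs (range 5 to 48) and a median observed over expected CpG ratio of 0.85. That ratio was over 0.6 at 43 sites (87.8%). The same share was 86.9% for 609 sites in regions of 1500 to under 2000 bp, 85.7% for regions of 1000 to under 1500 bp, 76.3% for 500 to under 1000 bp, 50.7% under 500 bp and 47.6% for all 21262 start sites of the table. Start sites of 1 gene are not independent of each other. The exceptions among members included Cul1, the scaffold of SCF ubiquitin ligases, with 5 CpGs at its most upstream start and 43 and 46 at its other starts. Cdkn2c had 33 at its upstream start and 8 at its downstream start. Stat6 and Vim had 8 and 11 in this window.

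Short motifs were searched on both strands of the same windows, as letters only. The GC box GGGCGG, bound by Sp and KLF factors, was present at 73.5% of member start sites, 75.0% of those in regions of 1500 to under 2000 bp and 46.2% of all. The CCAAT box stood at 22.4%, 34.5% and 38.2% in the same order, and the ETS core CCGGAA at 24.5%, 25.8% and 18.7%. The TATA box TATAAA was found at 12.2%, 5.75% and 12.6%. It lay 32 bases before the start of Vim, 29 before that of Lbh, a transcriptional regulator first described in limb bud and heart, and 27 before that of H1f4. The RUNX core TGTGGT was found at 12.2%, 10.5% and 15.0%, the GATA core AGATAA at 4.08%, 4.60% and 9.65%, and the AP-1 site TGANTCA at 2.04%, 2.63% and 6.99%. No member site held the CRE palindrome TGACGTCA or the NRF1 motif part GCGCATGC, which 2.23% and 3.51% of all sites did. In regions of 1500 to under 2000 bp these shares were 2.30% and 5.58%. With 49 sites, 1 site is worth 2.04%, and no motif count was tested.

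Measured from the most upstream start, most members extended further into the gene than away from it. Among the 23 members with the start of exactly 1 gene of known strand, 20 (87.0%) reached further downstream than upstream of the most upstream start, with medians of 1358 bp downstream and 834 bp upstream. In regions of 1500 to under 2000 bp chosen in the same way this held for 231 of 340 (67.9%), with medians of 983 and 646 bp. This measure favours the downstream side wherever a region holds several starts, as in Rreb1, Sp3, Chst15, Cav1, Cdkn2c and Cul1. The part of this in both shares was not tested. The most one-sided was Crlf2, a subunit of the TSLP receptor, with 159 bp upstream and 2373 bp downstream. Zc3h4, a zinc finger protein that limits non-coding transcription, ran the other way with 1866 bp upstream and 157 bp downstream, as did Thrb, the thyroid hormone receptor beta, and Gna13, a G protein alpha subunit. Summits, the points of highest signal within a peak, were spread along the regions. Of 272 summits in these 23 regions, 140 (51.5%) lay downstream of the start and 87 (32.0%) within 250 bp of it.

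The strongest summit was at the start in some members and far from it in others, and in several its place recurred between libraries. In 13 of the 23 the median position of the strongest summit was within 250 bp of the start. In Vim it was 451 to 457 bp upstream in all 6 libraries. In Spag9, a scaffold protein of MAP kinase signalling, it was 771 to 811 bp upstream. In Zc3h4 it was 983 to 1071 bp upstream. In Cul1 it was 576 to 637 bp downstream, next to the CpG-rich downstream starts. In Epc2, a subunit of the NuA4 acetyltransferase complex, 5 libraries had it 1468 to 1525 bp downstream and tunicamycin replicate 3 had it at 585 bp. The strongest summits of different libraries lay more than 1 kb apart in 6 of the 23, namely Rreb1, Crlf2, Cflar (an inhibitor of caspase 8), Gna13, Cav1 and Crim1. An example is Rreb1, a zinc finger factor of the Ras pathway, where DMSO replicate 2 had its strongest summit 1253 bp downstream and the others lay between 33 bp upstream and 18 bp downstream.

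**Figure D1:**
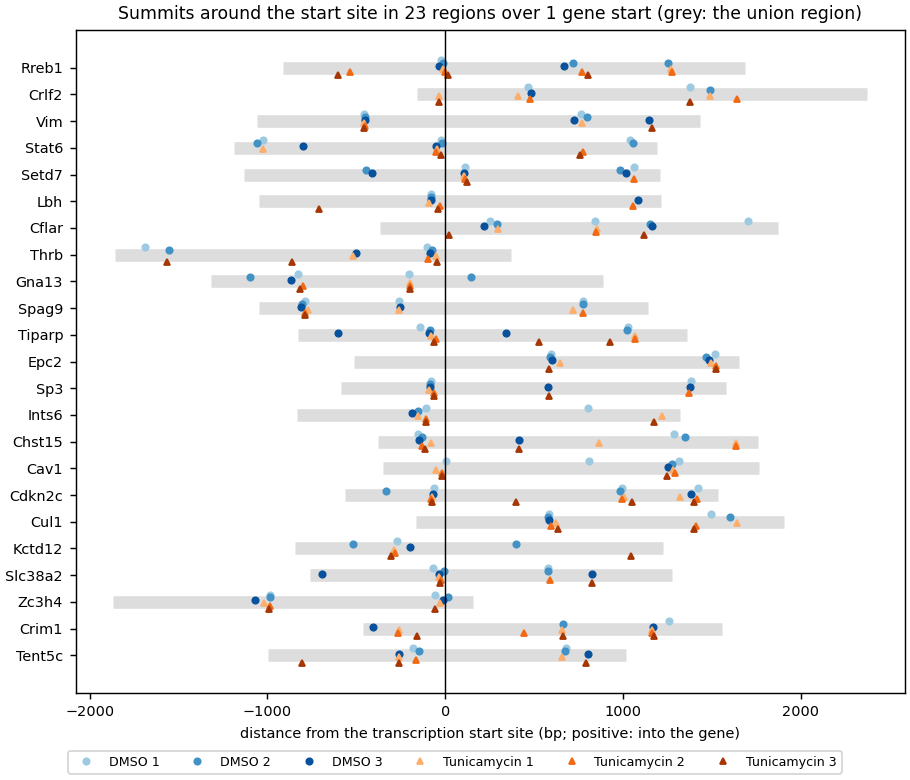
Positions of peak summits (horizontal axis, bp from the most upstream start site, positive into the gene) in the 23 members over the start of exactly 1 gene. Each row is a member, the grey bar is the union region, circles are DMSO libraries and triangles tunicamycin libraries. Most bars reach further to the right of the start, and summits of different libraries pile up at the same places, as at Vim and Cul1.

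The widest region of all was an outlier by its content. It spans chr17:39843044-39847213 (4170 bp), lies 103 kb from the nearest coding gene, Esp38 (a secreted peptide of the exocrine glands), and overlaps Rn18s-rs5, an annotated pseudogene related to 18S ribosomal RNA. Each library had 1 peak here, which covered 4162, 4163 and 3986 bp in DMSO replicates 1 to 3 and 4170, 4166 and 4148 bp in tunicamycin replicates 1 to 3. The authors' fold enrichment over background, a value of each peak, was only 2.08 to 2.36, which put it at percentiles of 0.0105 to 0.0334 of the 6 lists. Ribosomal RNA genes exist in many near-identical copies. How reads that match several copies were placed is not given in the sources used here, and the part of this in the width was not tested. Without this region the widest member is 2761 bp.

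The next regions by width lay inside Nr3c1, far from any coding gene, and at the starts of Rreb1 and Crlf2. The region in Nr3c1, the glucocorticoid receptor, spans chr18:39489000-39491760 (2761 bp) and lies inside the annotated gene, where start sites were not analysed here. Its peaks covered 2111, 1806 and 1500 bp in DMSO replicates 1 to 3 and 2513, 2504 and 2199 bp in tunicamycin replicates 1 to 3. All tunicamycin values were above all DMSO values, and the lists of DMSO replicates 2 and 3 are the shortest of the 6. The next, 2603 bp at chr17:13550614-13553216, lies 163 kb from Tcte2 over the lncRNA gene 2700054A10Rik and was among the most even, with 2424, 2378 and 2360 bp after DMSO and 2397, 2321 and 2177 bp after tunicamycin. Crlf2 (chr5:109556620-109559152, 2533 bp) was nearly as even, with 2312, 2140 and 1990 bp after DMSO and 2062, 2001 and 2300 bp after tunicamycin. Rreb1 (chr13:37825123-37827724, 2602 bp) owed its width to 1 library. A single peak of DMSO replicate 1 covered all 2602 bp, while the others covered 618 and 437 bp after DMSO and 1271, 1061 and 962 bp after tunicamycin.

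The remaining members among the 12 widest were all at gene starts or ends. They were Vim (chr2:13573251-13575743, 2493 bp), the KLF family factor Klf16 (chr10:80576793-80579240, 2448 bp), LOC115486128/Tgif2 (chr2:156839593-156842032, 2440 bp), Sgsm2/Tsr1 (chr11:74896099-74898528, 2430 bp), Stat6 (chr10:127641797-127644177, 2381 bp), the lysine methyltransferase gene Setd7 (chr3:51559613-51561954, 2342 bp) and Skil (chr3:31093655-31095973, 2319 bp), which encodes SnoN, a repressor of TGF-beta signalling. In Stat6 the DMSO libraries covered 1954, 1192 and 1121 bp and the tunicamycin libraries 2057, 2087 and 2091 bp, again without overlap. In Klf16 the values were 1761, 1894 and 1185 bp after DMSO and 1493, 2393 and 1946 bp after tunicamycin, and the groups overlapped. Vim covered 2219, 1396 and 1207 bp after DMSO and 2061, 2295 and 2059 bp after tunicamycin. The low DMSO values of Vim and Stat6 are those of replicates 2 and 3.

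**Figure D2:**
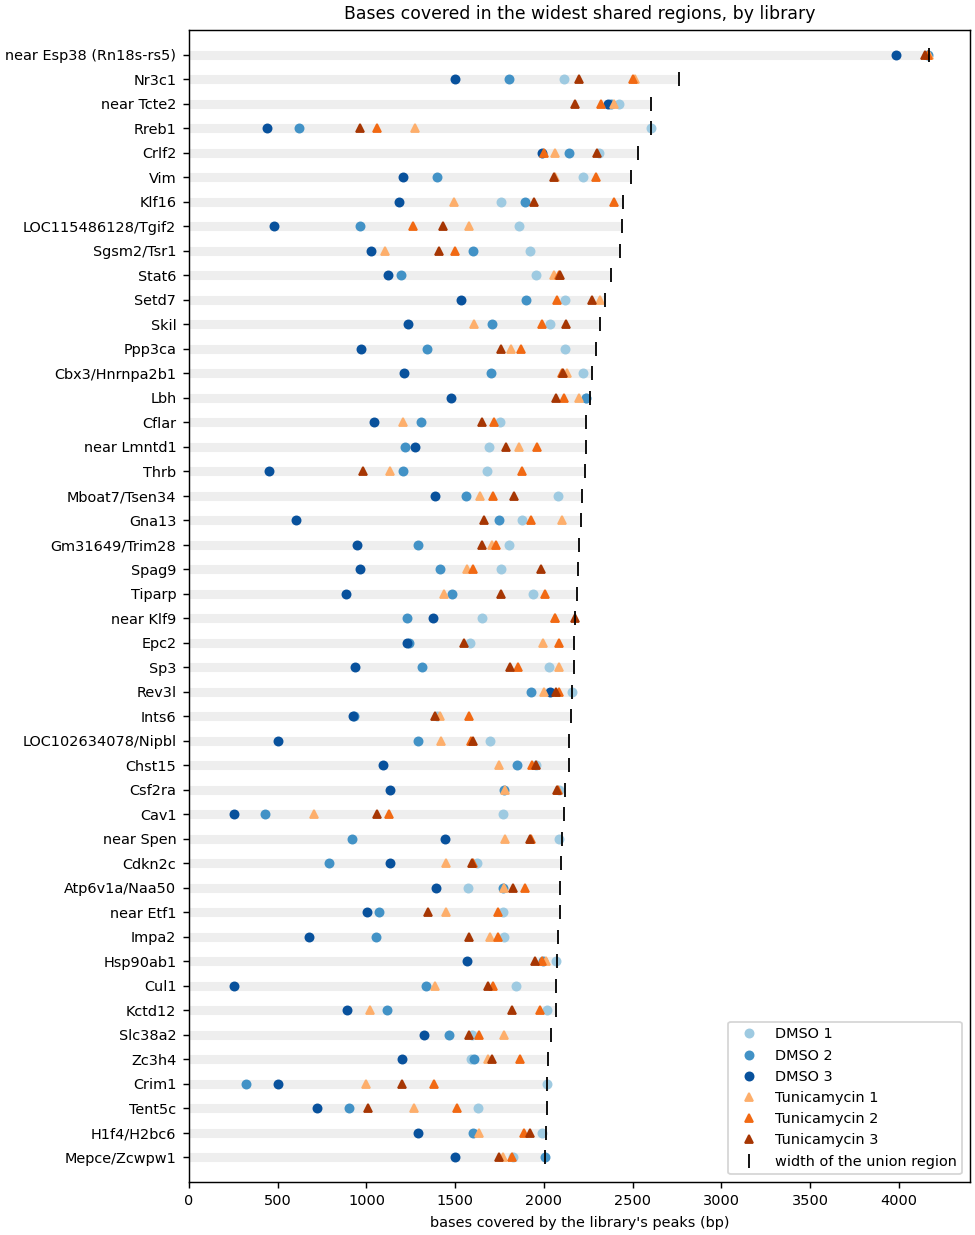
Bases covered by each library's peaks (horizontal axis, bp) in the members, ordered by width of the union region (black tick), with 1 member not drawn. Circles are the 3 DMSO libraries, triangles the 3 tunicamycin libraries. DMSO replicate 3, the darkest circle, was the narrowest library in 40 of all 47 members, and DMSO replicate 1 the widest in 25.

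Few members were a single broad peak in every library. Only 3 (6.38%) were 1 peak in all 6, beside 22.2% of regions of 1500 to under 2000 bp and 94.8% of those of 500 to under 1000 bp. They were the Rn18s-rs5 region, Rev3l (the catalytic subunit of DNA polymerase zeta, with 1928 to 2157 bp covered) and Hsp90ab1. Hsp90ab1, the constitutive cytosolic HSP90 chaperone (chr17:45572406-45574480, 2075 bp), was covered over 2070, 1994 and 1565 bp after DMSO and 2013, 1991 and 1949 bp after tunicamycin. No library had a peak of 2000 bp or more in 25 of the members, and 12 had such a peak in 1 library only. The bases covered in all 6 libraries had a median of 907 bp, or 42.1% of the union. The number of peaks per member over the 6 lists ran from 6 to 17, with a median of 11.

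Cbx3/Hnrnpa2b1 had the median spread of covered bases among the members, with a ratio of 1.83 between the widest and narrowest library. Its region (chr6:51468846-51471115, 2270 bp) was 1 peak in DMSO replicates 1 and 2 and tunicamycin replicate 1, and 2 peaks in the others. The peaks covered 2222, 1702 and 1211 bp after DMSO and 2131, 2101 and 2107 bp after tunicamycin. The spread was largest in Cul1, with a ratio of 7.29 between the widest and narrowest library. It was covered over 1845, 1335 and 253 bp after DMSO and 1385, 1712 and 1685 bp after tunicamycin. Cav1, the caveolae protein caveolin 1, followed at a ratio of 7.03 with 1771, 430 and 252 bp after DMSO and 704, 1126 and 1062 bp after tunicamycin. Crim1, a transmembrane protein that binds bone morphogenetic proteins, had a ratio of 6.25 and no base covered in all 6 libraries. In Cul1 and Cav1 the lowest value was that of DMSO replicate 3, and in Crim1 that of DMSO replicate 2.

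**Figure D3:**
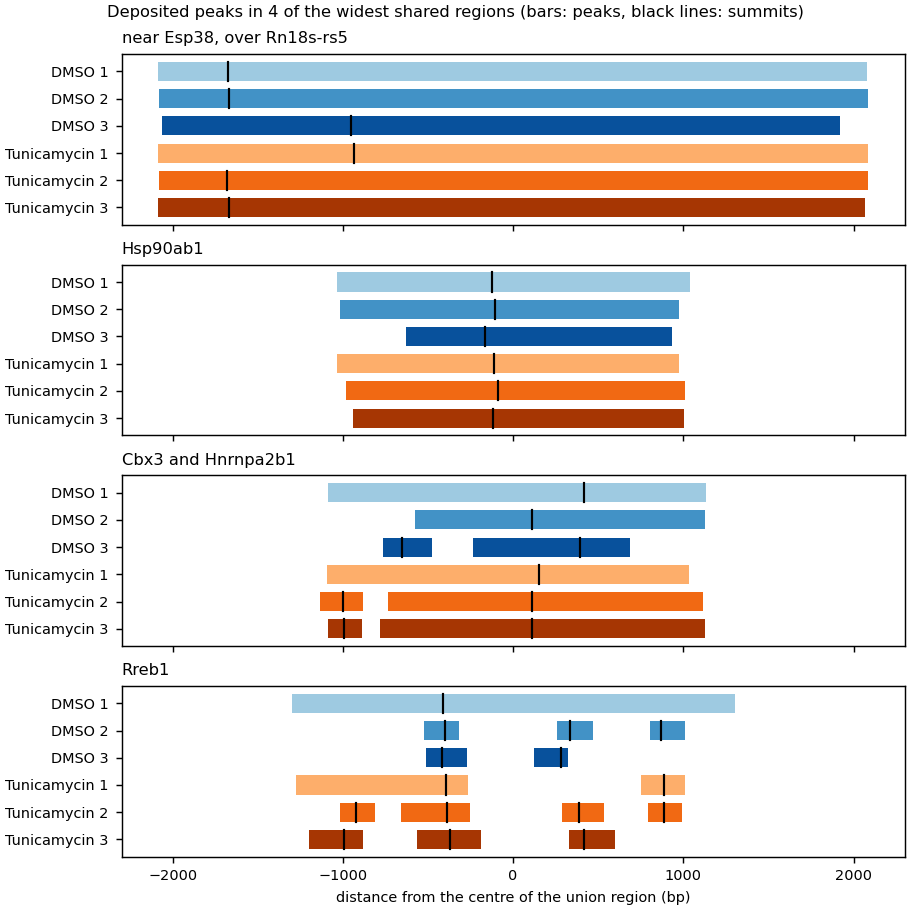
Peaks (bars) and summits (black lines) of each library in 4 members, by distance from the centre of the union region (bp). The Rn18s-rs5 and Hsp90ab1 regions are 1 peak in every library, Cbx3/Hnrnpa2b1 is 1 or 2 peaks, and Rreb1 is 1 peak of 2602 bp in DMSO replicate 1 and 2 to 4 shorter peaks elsewhere.

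Regions just inside and just outside the width threshold differed little in width. Just inside were H1f4/H2bc6 with 2013 bp (chr13:23620703-23622715) and Mepce/Zcwpw1 with 2009 bp (chr5:137785934-137787942). Mepce caps the 7SK RNA. Just outside were Gm49894/Zbtb14, 1 bp below the threshold (chr17:69382500-69384498), the splicing factor gene Srsf6 with 1995 bp (chr2:162930642-162932636) and Kmt2e with 1991 bp (chr5:23432614-23434604). A further 2 regions were wide enough but lacked a call in DMSO replicate 3. They were 2177 bp at Galnt7 (chr8:57651620-57653796) and 2000 bp at a distance of 59428 bp from Ccdc54 (chr16:50528432-50530431).

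Of the 9 members in which no start site or gene end was found, 6 lay outside coding genes and 3 overlapped one. Beside the Rn18s-rs5 and Tcte2 regions, the outside members were 47.2 kb from Lmntd1, 13.6 kb from Etf1 (the translation release factor eRF1), 6.53 kb from Spen (a corepressor of Notch targets) and 4.96 kb from Klf9 (a KLF family factor). Those near Spen and Klf9 overlapped the lncRNA genes B330016D10Rik and 2410080I02Rik. The overlapping members were those of Nr3c1, where start sites were not analysed, of LOC102634078/Nipbl (Nipbl loads cohesin) and of Csf2ra, the alpha chain of the GM-CSF receptor. Members lay on 16 autosomes, with 5 each on chromosomes 3 and 17, and the closest pair was 3.37 Mb apart. They were not placed among unusually many neighbours. A median of 2 other regions called in all 6 lists lay within 50 kb of a member, the same as for regions of 1500 to under 2000 bp and for all 20810.

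The members had middling fold enrichment among all peaks of a list, and mostly low fold enrichment among the regions called in all 6 lists. For each library the highest fold enrichment in a region was placed as a percentile among all peaks of that library. The members' median percentile was 58.6, 60.0 and 66.0 in DMSO replicates 1 to 3 and 60.7, 61.8 and 63.2 in tunicamycin replicates 1 to 3. Over all regions called in 6 lists the medians were 62.5 to 80.3, above the members' in every library except DMSO replicate 3. Ranked among these 20810 regions only, the members' mean rank had a median of 32.5, and 8 members were over 50. Regions of 1000 to under 1500 bp had medians of 77.0 to 84.8 in the 6 libraries, and those of 1500 to under 2000 bp 71.4 to 74.8. The members thus had lower medians than both of these classes in every library. Regions under 500 bp had medians of 44.3 to 65.9, below the members in 4 libraries and above them in DMSO replicate 1 and tunicamycin replicate 2. Over all 20810 regions width and mean rank rose together (Spearman's rho 0.319 across regions, as a description), so fold did not fall with width throughout. The highest fold in any member was 10.1, while the strongest peaks of the lists reached 28.1 to 31.1. Only 23 members were above the percentile 50 in all 6 libraries, and 5 were below it in all 6.

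The strongest members were Ppp3ca, the catalytic subunit of calcineurin, and Ints6, a subunit of the Integrator complex, the only ones above the percentile 80 in every library. Ppp3ca stood at percentiles 84.8, 81.6 and 91.2 after DMSO and 84.9, 86.6 and 88.7 after tunicamycin. Ints6 stood at 83.0, 85.2 and 90.6 after DMSO and 86.4, 89.7 and 82.9 after tunicamycin. Beside the Rn18s-rs5 region, which was the weakest in every library, Crlf2, Cflar and Crim1 were among the low members. Crlf2 had percentiles of 31.3, 42.5 and 30.1 after DMSO and 24.9, 32.2 and 32.6 after tunicamycin, so a region of 2533 bp was open at low fold in all 6 libraries. Cflar ranged from 16.4 to 45.9 and Crim1 from 10.2 to 48.0.

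**Figure D4:**
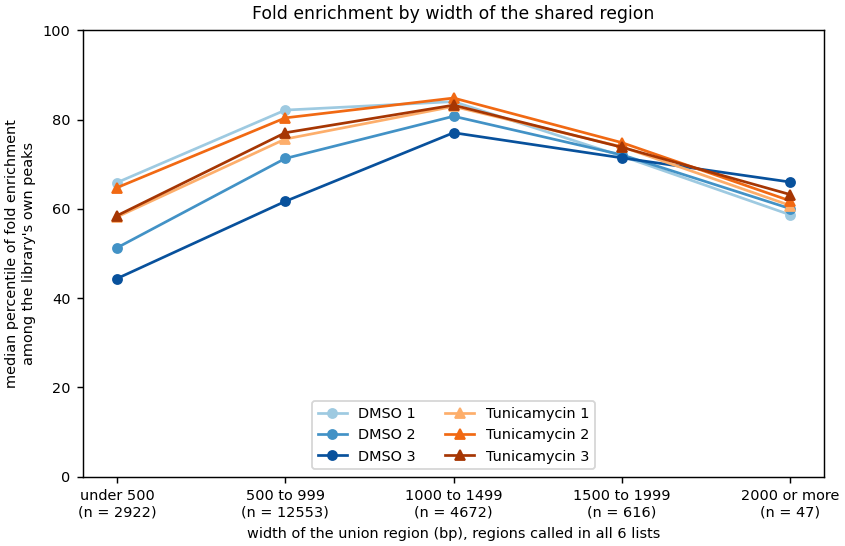
Median percentile of fold enrichment among a library's own peaks (vertical axis) for regions called in all 6 lists, by width class (horizontal axis, bp). Each line is a library. All 6 lines peak at 1000 to under 1500 bp (77.0 to 84.8) and fall to 58.6 to 66.0 for the 47 members.

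Percentiles in lists of unequal length cannot be compared between groups, so libraries were compared by the rank of each region among the 20810 regions that all of them called (0 lowest, 100 highest). Of the 47 members none had a higher rank in every tunicamycin library than in every DMSO library, against 4.66% of all 20810 regions. In 3 members (6.38%) every tunicamycin rank was lower, against 4.55% of all regions, so both shares were near the background. With 3 libraries against 3, a two-sided exact permutation test cannot give a p below 0.10, and each of the 3 reached that value. limma, fitted to normal scores of the ranks over all 20810 regions, called no member and 0.0% of all regions at an adjusted p of 0.05. At an unadjusted p of 0.05, limma passed 1 member, Thrb (adjusted p = 0.996), and 905 of all regions (4.35%).

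The 3 members with lower ranks after tunicamycin differed in kind. Klf16 had the largest difference, with ranks of 17.6, 38.1 and 51.0 after DMSO and 16.1, 13.3 and 15.3 after tunicamycin. The means were 35.6 ± 16.8 and 14.9 ± 1.46 (SD, n = 3 each, exact permutation p = 0.10, limma adjusted p = 0.996). DMSO replicate 1 lay close to the tunicamycin libraries. Kctd12 (chr14:102981413-102983479, 2067 bp) was tighter, with 15.7, 17.7 and 18.2 after DMSO and 8.30, 9.28 and 9.49 after tunicamycin, or 17.2 ± 1.33 and 9.02 ± 0.635 (SD, n = 3 each, exact permutation p = 0.10, limma adjusted p = 0.996). The Rn18s-rs5 region was among the lowest ranks of all libraries, 0.0096 to 0.0192, where such a difference is a few places among 20810.

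The members' ranks were mostly lower after tunicamycin, and this direction depended on which DMSO libraries were averaged. The mean rank was lower after tunicamycin in 38 members and higher in 9, with a median difference of -5.38 rank points (range -20.7 to 11.3), beside -0.304 over all regions. Trim28 had the largest difference upward, with 17.3, 29.6 and 43.6 after DMSO and 41.5, 42.5 and 40.3 after tunicamycin, and the groups overlapped. DMSO replicate 3 gave the highest rank of all 6 libraries in 32 members, and DMSO replicate 1 the lowest in 22. When DMSO replicate 3 was not averaged the median difference was 1.13 and 27 members were higher, and when DMSO replicate 1 was not averaged it was -12.1 and 4 were higher. The direction of the median thus changed with a single library. DMSO replicates 1 and 3 are also the longest and the shortest list, and the part of list length in these ranks was not tested.

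**Figure D5:**
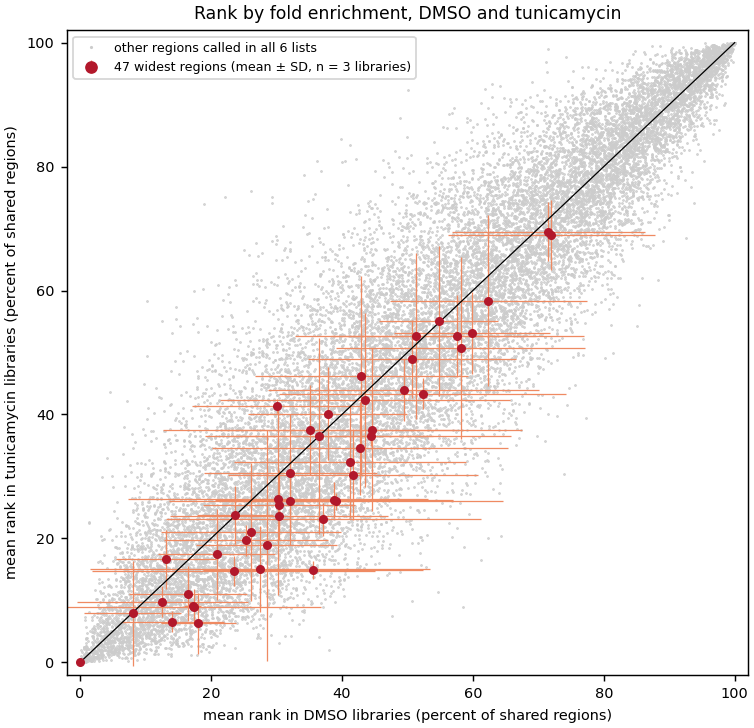
Mean rank by fold enrichment among the 20810 regions called in all 6 lists (percent), DMSO on the horizontal and tunicamycin on the vertical axis. Red points are the 47 members with SD over 3 libraries as bars, grey points are the other regions and the line marks equal ranks. In the 38 members below the line the horizontal bars are mostly long, since DMSO libraries differed more among themselves.

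The extent of the members varied widely among the DMSO libraries. The median member was covered over 1923, 1414 and 1134 bp in DMSO replicates 1 to 3 and 1746, 1888 and 1784 bp in tunicamycin replicates 1 to 3. As means of these medians this is 1490.3 ± 400.0 bp after DMSO and 1806 ± 73.5 bp after tunicamycin (SD, n = 3 each), with no test, since width chose the members. The difference of 315.7 bp was 139.2 bp without DMSO replicate 3. DMSO replicate 1 exceeded every tunicamycin library. In 6 members (12.8%) every tunicamycin library covered more bases than every DMSO library, against 6.3% of all 20810 regions, and in none did every one cover fewer, against 0.687%. The 6 were Nr3c1, Stat6, Zc3h4, Atp6v1a/Naa50 and the regions near Lmntd1 and Klf9. Near Klf9 the covered bases were 1652, 1226 and 1377 after DMSO and 2063, 2064 and 2178 after tunicamycin, where each tunicamycin library had 1 peak and each DMSO library 2 or 3.

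Genes of 16 lists were looked up at the widest regions. Over all 21883 gene bodies 51 (0.233%) had a member within 1 kb. None of 40 HSC transcription factor genes, 24 HSC surface and niche signalling genes, 40 genes of the endoplasmic reticulum stress response or 30 of the integrated stress response did, which at this background share is no result about those genes. Genes of the other lists at members included Cdkn2c of 36 cell cycle genes, Hnrnpa2b1 and Hsp90ab1 of 35 housekeeping genes, Skil of 38 signalling genes and Csf2ra of 28 neutrophil and monocyte markers. No list was tested.

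Cdkn2c and Csf2ra were open in every library at middle to high percentiles. Cdkn2c (chr4:109665221-109667318, 2098 bp) stood at percentiles 78.2, 60.6 and 79.3 after DMSO and 83.8, 73.3 and 77.7 after tunicamycin, and its shared ranks overlapped between groups. Csf2ra (chr19:61225758-61227876, 2119 bp) stood at 56.7, 69.4 and 72.2 after DMSO and 57.9, 71.8 and 70.4 after tunicamycin, and its shared ranks overlapped as well. Slc38a2, an amino acid transporter of the plasma membrane (chr15:96698454-96700491, 2038 bp), had shared ranks of 16.4, 31.9 and 37.1 after DMSO and 40.4, 8.61 and 7.64 after tunicamycin. The tunicamycin ranks of Slc38a2 lay on both sides of the DMSO ranks.

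Emp1, which encodes an epithelial membrane protein, had no wide region. Of its 5 union regions 2 were called in all 6 lists. The wider, 618 bp at chr6:135364168-135364785, stood at percentiles 81.6, 69.5 and 49.0 after DMSO and 91.0, 92.2 and 75.8 after tunicamycin. The other, 588 bp at chr6:135377494-135378081, stood at 70.3, 23.7 and 60.9 after DMSO and 29.3, 60.3 and 31.1 after tunicamycin. These are percentiles of lists of unequal length, which cannot be compared between groups. On the shared ranks limma called none of the 20810 regions at an adjusted p of 0.05, these 2 included.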

How the data were processed

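Narrow peak lists of 6 ATAC-seq libraries, 1 list each, were used as the authors deposited them. Bowtie2 2.2.9, MACS2, Picard, featureCounts and Trim Galore 0.4.4 with build mm10 are listed in the submitters' processing notes. Their settings, read-end shifts included, were not given in the sources used here. Per peak, the authors' files hold −log10 q-value and −log10 p-value, fold enrichment (a ratio) and a display score, and the largest q-value was 0.0482 to 0.05. Per list, 109 to 138 peaks on other sequences were left out.

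Peaks were merged with Python 3.11.15, NumPy 2.4.6 and pandas 2.3.3, and bedtools 2.31.1 gave the same 82993 regions. Covered bases, core and peak number were counted per library. Ranks were compared with SciPy 1.17.1 and with limma 3.58.1 in R 4.3.3 (normal scores, Benjamini-Hochberg adjustment, tested on simulated data). Figures used matplotlib 3.10.9. Genes came from a RefSeq table of GRCm38.p6. Start sites with strand came from a promoter table that matched 17491 of 21896 protein-coding entries (21262 start sites), and other genes were placed by either gene end. Promoters on chromosome 18 were not analysed here.

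Alternatives covered the q-value limit, list length, joining and width rules, other rank values, the replicate number as a block and each library left out. The members and gene lists were chosen with earlier results of these data known. Named were the 12 widest members, list genes at members, members whose ranks did not overlap between groups, regions at the width threshold, those farthest from genes or most variable, and Emp1, and some items that this rule names are not reported here. Other genes named, such as those of motif, summit, percentile or rank examples, were chosen after their values were seen.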

Additional observations from a re-analysis of the deposited data

How the results depend on the processing

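The number of widest regions depended on how width was defined. Beside the 47, there were 22 when each library had to cover at least 50% of the region, 22 when some library needed a single peak of 2000 bp, 1 when every library did and 2 when the bases covered in all libraries had to reach 2000 bp. A width of 1500 bp gave 663 and one of 3000 bp gave 1. A q-value limit of 1e-05 gave 43, lists of one length 38, joining peaks within 100 bp 58 and autosomes only 47, and leaving out each library gave 34 to 45. The share with a start site was 85.1% within 1 kb, 79.1% at the stricter q-value and 76.5% to 82.2% with a library left out. The difference in covered bases, 315.7 bp, was 354.3 bp at the stricter q-value, 294.7 bp with lists of one length and 139.2 to 455.8 bp with a library left out (139.2 without DMSO replicate 3).

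Members ranked higher in every tunicamycin library numbered 2 with the width-weighted mean fold, 1 with the highest −log10 q and 2 with percentiles among all peaks of a list, where the background was 7.42%, and 0 to 4 with a library left out (4 without DMSO replicate 3, background 10.3%). Those ranked lower numbered 0 with −log10 q, 1 with list percentiles (background 1.59%) and 2 to 14 with a library left out (14 of 35 without DMSO replicate 1, background 16.3%). The cause was not tested. limma called 0 members in every setting that was run. Single-region rank differences moved by more than the spread between libraries in 17 cases and did not in 451. In the 3 members whose ranks did not overlap between groups, the difference changed sign in none of these cases. Same-numbered libraries did not deviate together (correlations -0.085, -0.014 and 0.030), and the other pairs ranged from -0.087 to 0.101. With deviations from means of 3 libraries, these values show no sign of pairing by number but cannot exclude it. With the replicate number as a block limma called 0 members and 0 regions. Read depth is unknown, so a short or missing peak does not show closed chromatin.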

Other observations

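At a lower width of 1500 bp, which includes the widest regions, gene lists differed in how many genes had a region called in all 6 lists. Of 40 genes of the endoplasmic reticulum stress response, 3 (7.5%) had a region of 1500 bp or more called in all 6 lists within 1 kb. They were Xbp1, the transcription factor of the IRE1 branch (1757 bp), Herpud1, a component of ER-associated degradation (1735 bp), and Calr, the ER chaperone calreticulin (1721 bp). The ER chaperone gene Hspa5 reached 1193 bp and Atf4, the central factor of the integrated stress response, 1397 bp. Among 40 HSC transcription factor genes 2 (5.0%) had such a region, Runx1 with 1805 bp and Etv6 with 1511 bp, while the widest at Mecom was 671 bp. Housekeeping genes had one in 9 of 35 cases (25.7%), of which Hnrnpa2b1 and Hsp90ab1 are at the widest regions, and chromatin regulators in 4 of 38 (10.5%), Asxl2 with 1828 bp and Ep300 with 1737 bp among them. Of 30 genes of the integrated stress response 1 (3.33%) had one, and none of 24 HSC surface, 22 erythroid, 20 megakaryocyte, 28 lymphoid or 18 macrophage genes did. Over all gene bodies the share was 3.36%, close to that of the HSC transcription factors and the integrated stress response. Only 54.4% of all gene bodies had any region called in all 6 lists. Such a region was present at 39 of 40 endoplasmic reticulum stress genes and 36 of 38 chromatin regulators. The list shares and the 3.36% are thus not on a like basis. At this background share, a count of none in lists this short is no result about those genes. These genes were named after their values were seen, and no list was tested.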
